A study of Triticum aestivum with 16 samples.

Results

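The genes described here were highest in axillary buds of the bread wheat cultivar AiKang58 (AK58) and were also detected in buds of a second cultivar, Zhengmai7698 (ZM7698). They are wheat gene identifiers outside chromosomes 1B and 5B with 100 or more normalised reads in both AK58 bud libraries. In each, the lower bud value was at least 4 times the highest of the 6 AK58 leaf, root and shoot apex values, and both wild type (WT) ZM7698 bud libraries had at least 1 TPM, a transcript level scaled to gene length and library total. Of 107891 wheat gene identifiers, 97601 lay outside 1B and 5B, 393 of these met the AK58 criteria, and 303 also met the ZM7698 floor. The 200 with the highest ratio of the lower bud value to the highest other AK58 value are described, and 103 were left out by that limit. Of the other genes that met the AK58 criteria, 71 were under 1 TPM in both WT bud libraries and 19 in 1 of them. All values of AK58 and the floor in WT buds therefore chose the genes, whereas the M6 libraries and the WT apex libraries took no part in the choice.

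Axillary buds sit in the angle between leaf and stem and, in wheat and other grasses, grow out into tillers, the side shoots that can carry further spikes. A bud holds a meristem and young leaves of its own, as the shoot apex does, and it can rest for long periods before it grows. The SPL proteins, a plant family of transcription factors, act in shoot branching and in the change from the juvenile to the flowering plant, and vernalization is the long cold period that winter wheat needs before it flowers.

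Messenger RNA was sequenced in 16 libraries, 2 for each of 8 groups, from plants grown at 22 °C for 16 h of light and 19 °C for 8 h of darkness. M6 is a ZM7698 line with mutations in the A, B and D copies of both TaSPL7 and TaSPL15, and its axillary buds and shoot apices were set beside those of WT ZM7698, all from seedlings of 2 weeks. In AK58, whose labels give no mutation, buds came from seedlings of 6 weeks after 30 days of vernalization at 4 °C, and apices, leaves and roots from seedlings of 2 weeks without it. Buds of both cultivars measured 1.0 to 2.0 cm. In AK58 tissue, age and cold therefore cannot be told apart, and the ZM7698 labels give no cold treatment. The labels do not say how M6 was made, whether it is 1 line or several, how many plants went into a library, or whether replicates were separate plants, so a p-value reflects no more than how far these libraries differ, which may be technical.

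The AK58 values are reads divided by 1 factor per library (normalised reads) and correspond to 51497044 to 79585209 reads. They are not scaled to gene length and were compared only within a gene. The ZM7698 values are TPM, which are scaled to length, and their depth is unknown. Replicates correlated at 0.947 to 0.982 across genes in ZM7698 and at 0.770 to 0.980 in AK58 (Pearson, log2 scale), with the lowest value in each set for M6 bud and AK58 root. Libraries of different ZM7698 groups correlated at 0.896 to 0.979. M6 bud replicate 1 stood apart, at 0.896 to 0.944 with the libraries of other groups. M6 bud replicate 2 correlated at 0.972 and 0.975 with the WT buds, above its 0.947 with M6 bud replicate 1, so values in M6 buds are also given without each M6 bud library. The tables pair no names with the identifiers and the reference gene table matched 0 of them. For this reason the genes are given by identifier, without names or roles, and neither the tissue labels nor the mutated genes were checked on named markers. In tissue samples, fewer cells of a type and less RNA per cell cannot be told apart.

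In AK58 the ratio that chose the genes was 1294 at its highest, 10.8 at the median and 5.66 at its lowest. It was at least 100 for 7 genes and at least 10 for 111. The median gene had 926 and 984 normalised reads in the bud libraries, against 15 and 26.7 in apex, 22.0 and 25.4 in leaf, and 0 and 1.88 in root. The highest value outside the bud was in an apex library for 96 genes, in a leaf library for 80 and in root replicate 2 for 24. Roots gave the least: 87 genes had 0 reads in both root libraries, 16 in both apex libraries and 7 in both leaf libraries. Across all genes, root replicate 1 correlated at 0.758 and 0.770 with the leaf libraries, close to its 0.770 with root replicate 2. Root replicate 2 correlated with the leaf libraries at 0.525 and 0.519, so the root libraries were unlike each other. Limma called 161 of the 200 higher in AK58 bud than apex, against 9.7% of the 69525 genes tested (8.12% were lower), and a count test in edgeR on the recovered reads called 141, against 7.98% (4.43% were lower). These contrasts chose the genes, so nothing is read from the counts.

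At the thresholds, the last genes inside the limit of 200 were TraesCS4D02G304100 and TraesCS4D02G342000 with ratios of 5.73 and 5.66. The next outside were TraesCS3B02G492200 and TraesCS6D02G199200 with 5.61 and 5.59. The floor of 4 itself lay between TraesCS7D02G365000 and TraesCS6A02G123900, at 4.02 and 4.01, and TraesCS7D02G015700 and TraesCS2A02G518000, at 3.99 and 3.98. The lowest lower bud values inside were 102 normalised reads for TraesCS3B02G139500 and 108 for TraesCS3A02G474000, and just outside stood TraesCS7B02G456600 at 98.0 and TraesCS4B02G354000 at 92.8. For the WT bud floor, TraesCS6A02G354600 at 1.05 TPM and TraesCS7D02G009100 at 1.07 TPM lay inside, and TraesCS2A02G525100 at 0.958 TPM and TraesCS5A02G454700 at 0.955 TPM outside. All 200 passed the expression filter of 1 TPM in at least 2 ZM7698 libraries, as the rule makes them. Without the WT bud libraries 194 would have passed it, and 1 gene reached 1 TPM in no other library.

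**Figure D1:**
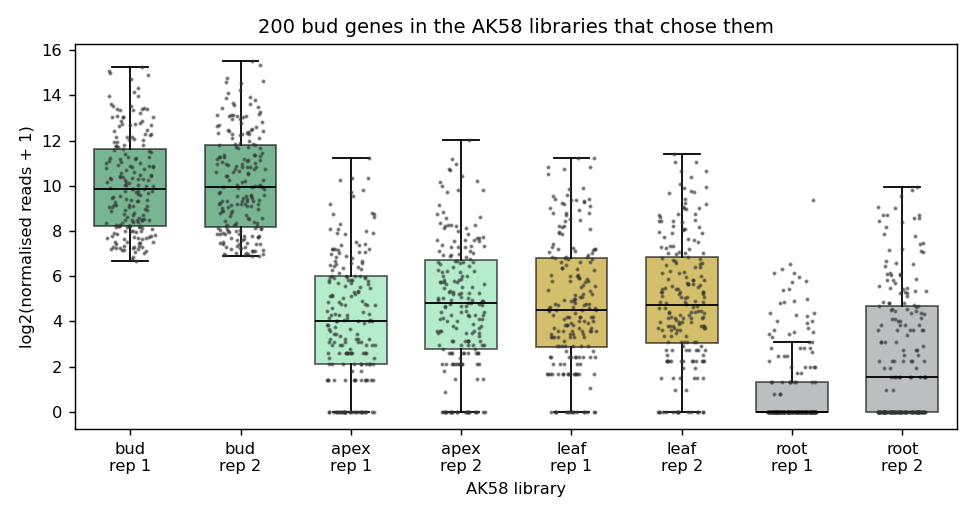
Level of each of the 200 genes (dots) in every AK58 library, as log2(normalised reads + 1), with boxes for the quartiles and whiskers to the farthest value within 1.5 box lengths. Both bud boxes stand above the apex, leaf and root boxes, which is how the genes were chosen, and root replicate 1 has a median of 0 reads.

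The 12 genes with the highest AK58 ratio came from 5 chromosomes, with 4 on 6A, 4 on 6B, 2 on 7B, 1 on 7D and 1 on 2D. TraesCS6A02G094500, the highest, had 2435 and 2598 normalised reads in AK58 buds, against 0 and 0 in apices, 0 and 0 in leaves and 0 and 1.88 in roots. Its next in rank, TraesCS6A02G094300, had 8627 and 7980.4 normalised reads in AK58 buds, against 0 and 0 in apices, 9.88 and 0 in leaves and 0 and 11.3 in roots. TraesCS6A02G094100 had 5021 and 5217 normalised reads in AK58 buds, against 0 and 0 in apices, 2.2 and 7.4 in leaves and 5.98 and 0 in roots. These 3 identifiers lie within 4 numbering steps of each other on chromosome 6A, and all had 0 reads in both AK58 apex libraries.

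In ZM7698 the leading genes were lower in M6 buds than in WT buds. TraesCS6A02G094500 stood at 2.43 and 4.81 TPM in M6 buds, 3.33 and 0.453 TPM in M6 apices, 8.98 and 19.2 TPM in WT buds and 0.46 and 0.34 TPM in WT apices. TraesCS6A02G094300 stood at 13.5 and 32.5 TPM in M6 buds, 8.47 and 3.2 TPM in M6 apices, 95.3 and 107 TPM in WT buds and 4.75 and 6.36 TPM in WT apices. TraesCS6A02G094100 stood at 6.45 and 12.8 TPM in M6 buds, 5.47 and 1.24 TPM in M6 apices, 24.4 and 25.8 TPM in WT buds and 0.484 and 0.179 TPM in WT apices. For these 3 genes both M6 bud libraries lay below both WT bud libraries, and the M6 bud and apex libraries overlapped for TraesCS6A02G094500 only.

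TraesCS6A02G094400, on the same stretch of 6A, stood at 7.88 and 13.2 TPM in M6 buds, 5.89 and 1.17 TPM in M6 apices, 22.9 and 26.4 TPM in WT buds and 0.975 and 0.835 TPM in WT apices. On 7D and 7B the pattern was alike: TraesCS7D02G199400 stood at 7.45 and 14.6 TPM in M6 buds, 2.15 and 1.46 TPM in M6 apices, 38.5 and 47.6 TPM in WT buds and 1.26 and 1.02 TPM in WT apices. TraesCS7B02G103300 stood at 6.1 and 6.67 TPM in M6 buds, 2.19 and 0.934 TPM in M6 apices, 22.2 and 28.3 TPM in WT buds and 0.556 and 0.254 TPM in WT apices. In these 3 genes both bud libraries lay above both apex libraries in M6 as well as in WT, with a smaller gap in M6. Limma gave a log2 change of 2.04 ± 0.30 (SE) for TraesCS7D02G199400 in M6 bud over apex, which did not pass (limma adjusted p = 0.0819).

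The 6B genes were less alike. TraesCS6B02G122800 stood at 22.8 and 45.8 TPM in M6 buds, 36.4 and 18 TPM in M6 apices, 80.5 and 94.1 TPM in WT buds and 20.7 and 19.2 TPM in WT apices. TraesCS6B02G122500 stood at 1.74 and 2.1 TPM in M6 buds, 1.27 and 0.362 TPM in M6 apices, 2.16 and 5.23 TPM in WT buds and 0.221 and 0.121 TPM in WT apices. TraesCS6B02G122600 stood at 0.697 and 1.38 TPM in M6 buds, 0.843 and 0.508 TPM in M6 apices, 3.07 and 3.76 TPM in WT buds and 0.587 and 0.366 TPM in WT apices. M6 bud and apex libraries overlapped for TraesCS6B02G122800 and TraesCS6B02G122600 and not for TraesCS6B02G122500. Both M6 buds lay below both WT buds in all 3, by a narrow margin for TraesCS6B02G122500.

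The remaining 3 of the 12 did not have buds above apices in M6. TraesCS2D02G563600 stood at 164 and 377 TPM in M6 buds, 303 and 171 TPM in M6 apices, 370.3 and 370.2 TPM in WT buds and 151 and 132 TPM in WT apices, so that M6 buds and apices overlapped. TraesCS6B02G427200 stood at 46 and 78.8 TPM in M6 buds, 188 and 82.1 TPM in M6 apices, 90.7 and 126 TPM in WT buds and 36.4 and 30.6 TPM in WT apices, with both M6 buds below both M6 apices. TraesCS7B02G046300 stood at 1.59 and 2.6 TPM in M6 buds, 35.4 and 20.1 TPM in M6 apices, 2.57 and 8.41 TPM in WT buds and 7.62 and 3.28 TPM in WT apices. Its M6 apices were the highest of all groups and its WT bud and apex libraries overlapped. Its log2 change in M6 bud over apex was -3.19 ± 0.55 (SE; limma adjusted p = 0.11), the largest decrease among the 200, and it did not pass the test.

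**Figure D2:**
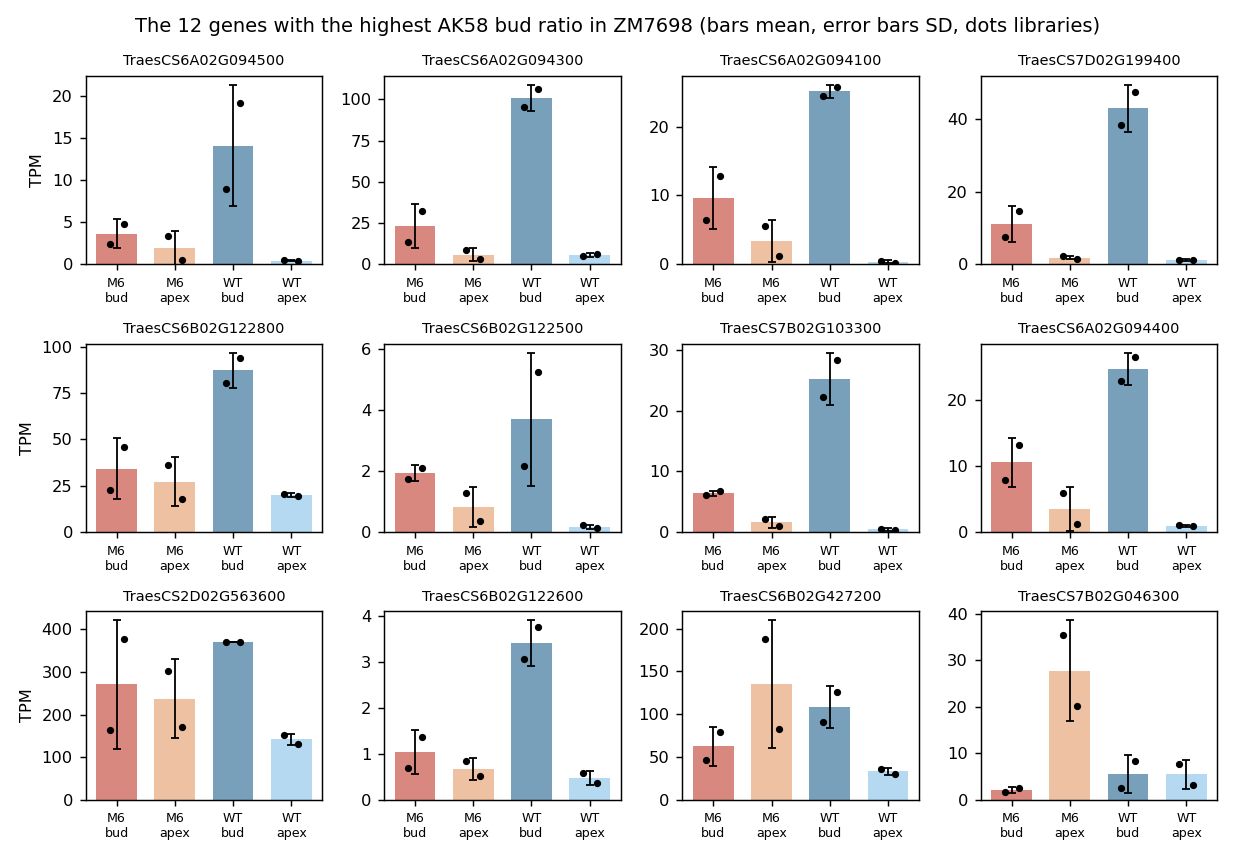
TPM of the 12 genes with the highest AK58 ratio in M6 bud, M6 apex, WT bud and WT apex; bars are means, error bars the SD over 2 libraries and dots the libraries. WT bud is the highest bar in 10 of the 12 panels, and M6 apex is the highest for TraesCS6B02G427200 and TraesCS7B02G046300.

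Bud against apex in M6 is a comparison that the choice of genes did not use, as is M6 against WT in the apex. The 200 genes together stood at 8757 and 9766 TPM in M6 buds and at 11187 and 6973 TPM in M6 apices, so the groups overlapped. A large part of the first M6 bud sum came from TraesCS4B02G120900, named for its values, with 2439.6 and 523 TPM in M6 buds and 162 and 152 TPM in M6 apices. Without it the sums were 6317 and 9243 TPM in M6 buds and 11026 and 6820 TPM in M6 apices. The median gene had 5.50 and 7.0 TPM in M6 buds and 6.99 and 4.48 TPM in M6 apices, where the median of all genes tested had 4.96 and 4.10 TPM and 4.42 and 4.31 TPM.

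Both M6 bud libraries lay above both M6 apex libraries for 55 of the 200 genes (27.5%), against 19.8% of all 50878 genes tested, and below them for 33 (16.5%), against 20.6%. The background was 20.7% above and 18.4% below among tested genes with at least 1 TPM in both WT bud libraries. The other 112 of the 200 overlapped. The median log2 change of the 200 was 0.06, against 0.03 over all genes tested, with quartiles of -0.37 and 0.52 around it. Limma called 1 of the 200 higher, where 0.0334% of all genes were, and 0 lower, where 0.055% were, and 62 had an unadjusted p under 0.05 in either direction, as had 5940 of the 50878. The called gene was TraesCS3A02G252200. It stood at 6.87 and 5.66 TPM in M6 buds, 1.29 and 1.39 TPM in M6 apices, 7.17 and 8.22 TPM in WT buds and 1.54 and 1.67 TPM in WT apices, so that both buds lay above both apices in each genotype. Its log2 change in M6 bud over apex was 1.63 ± 0.13 (SE; limma adjusted p = 0.0303). The call was lost in 5 of the 8 fits without 1 library, those that omitted a WT bud library, an M6 apex library or M6 bud replicate 1 (the highest adjusted p in limma was 0.199, when M6 apex replicate 1 was omitted), and the direction was kept.

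The M6 replicates differed in 1 direction for most of the 200 genes. Replicate 1 was above replicate 2 for 163 of them in the apex (81.5%, against 48.2% of all genes tested) and for 44 in the bud (22.0%, against 61.7%). The median log2 change of M6 bud over apex was -0.39 between the replicates numbered 1 and 0.39 between those numbered 2. It was 0.23 without M6 apex replicate 1, -0.17 without M6 apex replicate 2, 0.16 without M6 bud replicate 1 and -0.10 without M6 bud replicate 2, so its sign turned with the library left out. Without M6 bud replicate 2 limma called 11 of the 200 higher and 7 lower, where it called 3.66% of all genes higher and 1.11% lower, and without M6 bud replicate 1 it called 0 of the 200. The share of all genes called without M6 bud replicate 1 is not given, so the count in that fit cannot be read as a result about the 200. What sets the M6 replicates apart was not tested.

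WT buds gave 9931 and 12309 TPM for the 200 genes together and WT apices 4507 and 4293 TPM. The median gene had 7.74 and 10.1 TPM in WT buds and 4.25 and 4.00 TPM in WT apices. Both bud libraries lay above both apex libraries for 152 genes, against 20.0% of all genes tested, and below them for 9, against 32.3%. Among the 44411 genes tested with at least 1 TPM in both WT bud libraries the background was 22.0% and 30.4%. The median log2 change was 1.10, against -0.06 over all genes tested, and was positive in each of the 4 pairings of a bud with an apex library (0.91 to 1.28). Limma called 56 higher, against 1.61% of all genes, and 1 lower, against 0.884%. WT bud values took part in the choice of the genes, so these counts are a description, with no test read from them. Limma called 0 higher without WT apex replicate 2 or WT bud replicate 1 or 2, against 0.0%, 0.00988% and 0.0% of all genes. It called 23 when WT apex replicate 1 was omitted, against 0.559%, and 37 when M6 apex replicate 1 was, against 0.996%. Calls over all genes fell in these fits too, so the lost calls cannot be read as a dependence of the 200 on 1 library. The median log2 change was 1.07 without WT apex replicate 2, 1.25 without WT bud replicate 1 and 0.92 without WT bud replicate 2.

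**Figure D3:**
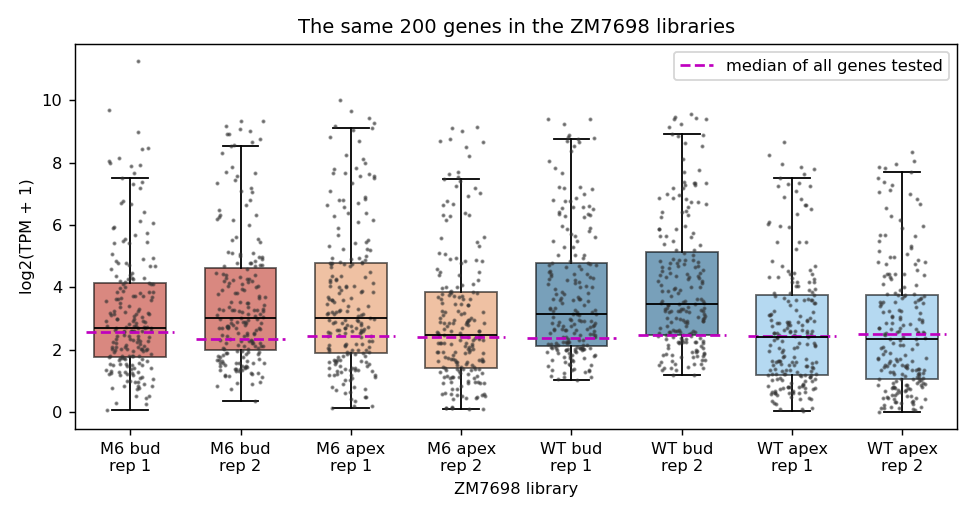
Level of each of the 200 genes (dots) in every ZM7698 library, as log2(TPM + 1), with boxes for the quartiles, whiskers to the farthest value within 1.5 box lengths and a dashed line at the median of all genes tested. The medians of the WT bud boxes lie above those of the WT apex boxes, with overlapping boxes, whereas the M6 apex replicates differ from each other (medians of 6.99 and 4.48 TPM) and the M6 bud medians are 5.50 and 7.0 TPM.

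The change in M6 was compared with that in WT in 1 model. The median difference between the log2 changes, M6 minus WT, was -1.07 for the 200 genes, against 0.08 for all genes tested, and it was below 0 for 174 of the 200. Limma called 0 of the 200 for this difference in either direction, as it did for all genes (0.0% in each direction). At an unadjusted p under 0.05 stood 102 of the 200 and 4105 of 50878, and the smallest adjusted p was 0.413. The median difference was -1.28 without M6 bud replicate 2 and -0.90 without M6 bud replicate 1. The lack of calls did not hold without M6 bud replicate 2, where limma made calls among the 200 and among all genes tested. M6 buds rest on 1 library in that fit. WT bud libraries, which the choice of genes used, enter this difference on the side that makes it negative. Among tested genes with at least 1 TPM in both WT bud libraries the median difference was 0.07. Of these, 3783 of 44411 had an unadjusted p under 0.05 in limma.

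Gene by gene, 50 genes had both buds above both apices in M6 and in WT, which is 50 of the 55 in M6 and 50 of the 152 in WT (25% of the 200, against 7.09% of all genes tested). Another 90 had them above in WT and overlapping in M6 (45.0%, against 11.5%), and 12 above in WT and below in M6 (6.0%, against 1.43%). For 4 genes both buds were below both apices in both genotypes (2.0%, against 11.9%). WT buds took part in the choice, so these shares are a description. The count below in WT and above in M6 was 0, where 1354 of all 50878 genes tested were. Across the 200 genes the M6 and WT changes had a Pearson correlation of 0.61, beside 0.57 across all 50878 genes. The 2 changes come from different libraries, and the genes are no independent replicates.

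**Figure D4:**
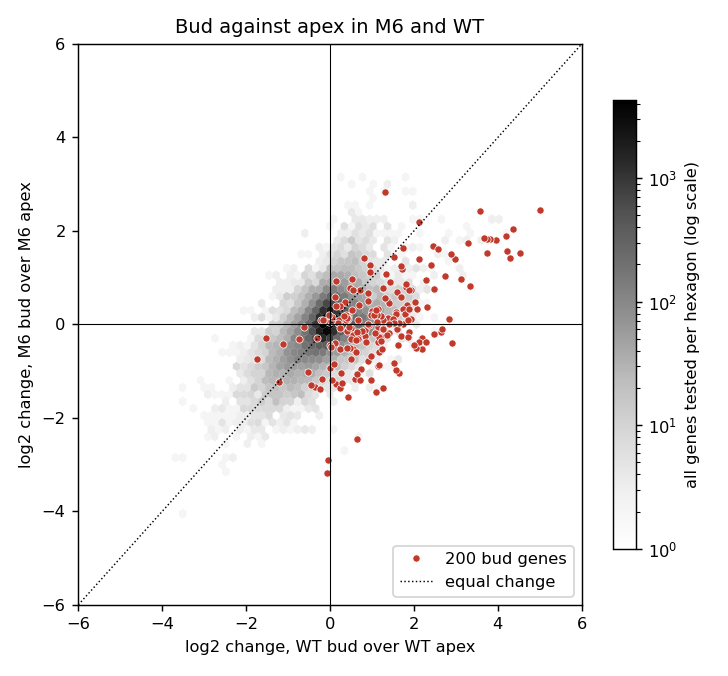
Log2 change of bud over apex in M6 (vertical axis) against WT (horizontal axis), on the log2(TPM + 1) scale, for the 200 genes (red dots) over all 50878 genes tested (grey hexagons, log colour scale). Most red dots lie right of 0 and below the dotted line of equal change, with medians of 0.06 in M6 and 1.10 in WT.

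The size of the AK58 ratio did not order the M6 values. In rank order by ratio, the 4 blocks of 50 genes had median log2 changes in M6 bud over apex of 0.02, -0.02, 0.09 and 0.09, and in WT bud over apex of 1.25, 1.17, 1.31 and 0.66. Across the 200 genes the log2 ratio had a Pearson correlation of 0.13 with the M6 change and of 0.32 with the WT change.

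M6 was next compared with WT in the apex. Both M6 apex libraries lay above both WT apex libraries for 102 of the 200 (51.0%), against 17.4% of all genes tested, and below them for 14 (7.0%), against 29.2%. Among tested genes with at least 1 TPM in both WT bud libraries the background was 17.5% and 30.7%. Neither group took part in the choice of the genes. The median log2 change was 0.57, against -0.05 over all genes tested, and was 0.73 and 0.98 for M6 apex replicate 1 and 0.24 and 0.36 for replicate 2, each against the WT apex libraries. It was 0.24 without M6 apex replicate 1 and 0.81 without M6 apex replicate 2. Single genes mostly did not pass: limma called 2 of the 200 higher, where 0.0786% of all genes were, and 0 lower, where 0.055% were, with 70 of the 200 and 3299 of the 50878 at an unadjusted p under 0.05.

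The called genes were TraesCS4D02G305500 and TraesCS4A02G407900. TraesCS4D02G305500 stood at 5.79 and 6.92 TPM in M6 buds, 6.66 and 5.95 TPM in M6 apices, 6.53 and 6.47 TPM in WT buds and 1.94 and 1.72 TPM in WT apices. TraesCS4A02G407900 stood at 5.02 and 5.77 TPM in M6 buds, 5.41 and 4.46 TPM in M6 apices, 5.77 and 6.18 TPM in WT buds and 1.32 and 1.57 TPM in WT apices. In both, the M6 apices overlapped the M6 buds and the WT apices stood below all other libraries. The log2 change in M6 over WT apex was 1.37 ± 0.12 (SE; limma adjusted p = 0.0227) for TraesCS4D02G305500 and 1.28 ± 0.13 (SE; limma adjusted p = 0.0379) for TraesCS4A02G407900. Each call was lost in 6 of the 8 fits without 1 library, all but those that omitted an M6 bud library, where limma called 4 of the 200, against 0.0978% and 0.0967% of all genes (the highest adjusted p in limma was 0.315 and 0.396, both when M6 apex replicate 1 was omitted), and the direction was kept.

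M6 was also compared with WT in the bud. Both M6 bud libraries lay below both WT bud libraries for 119 of the 200, against 19.7% of all genes tested, and above them for 12, against 16.5%. The background was 21.1% below and 15.1% above among tested genes with at least 1 TPM in both WT bud libraries. The median log2 change of the 200 was -0.54, against 0.03 over all genes tested. It was -0.29 without M6 bud replicate 1, -0.72 without M6 bud replicate 2 and -0.35 without WT bud replicate 2. Limma called 0 of the 200 in either direction, where 0.0806% of all genes were higher and 0.0668% lower, and 52 had an unadjusted p under 0.05, as had 5614 of the 50878. Without M6 bud replicate 2 limma called 25 lower and 2 higher, where it called 1.21% of all genes lower and 2.76% higher, and without M6 bud replicate 1 it called 0 of the 200. For the fit without M6 bud replicate 1 the share of all genes called is not given. Its count therefore cannot be read as a result about the 200. The floor in WT buds favours a lower value in M6, so the direction is a description. In 55 genes both held, with M6 apices above WT apices and M6 buds below WT buds, which is 55 of the 102 and 55 of the 119 (27.5% of the 200, against 5.2% of all genes tested).

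The 3 genes with the highest mean in WT buds are given next. TraesCS7A02G178300 stood at 266 and 645 TPM in M6 buds, 613 and 561 TPM in M6 apices, 670.4 and 702 TPM in WT buds and 118 and 232 TPM in WT apices. TraesCS7B02G084000 stood at 253 and 584 TPM in M6 buds, 525 and 520.0 TPM in M6 apices, 674 and 672 TPM in WT buds and 179.9 and 264 TPM in WT apices. TraesCS2B02G501000 stood at 353 and 437 TPM in M6 buds, 1041 and 553 TPM in M6 apices, 474 and 756 TPM in WT buds and 402 and 321 TPM in WT apices. In each, both M6 apices lay above both WT apices. M6 buds were lower than WT buds in both libraries for all 3 genes, and for TraesCS2B02G501000 both M6 buds were also below both M6 apices. Their log2 changes in M6 over WT apex were 1.82, 1.26 and 1.08 and did not pass (limma adjusted p = 0.453, 0.590 and 0.635).

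Some genes stood out by their values and are named for them. TraesCS4D02G226500, with the most negative difference between M6 and WT, stood at 5.53 and 10.5 TPM in M6 buds, 13 and 8.25 TPM in M6 apices, 10.9 and 17.3 TPM in WT buds and 1.08 and 0.849 TPM in WT apices. Its M6 apices lay within the range of the bud libraries, and its WT apices were the lowest. TraesCS5D02G464900, with the largest WT change, stood at 9.63 and 15.2 TPM in M6 buds, 2.47 and 0.672 TPM in M6 apices, 49.6 and 58.2 TPM in WT buds and 0.741 and 0.658 TPM in WT apices, and its M6 buds were above its M6 apices and below its WT buds. TraesCS4D02G337800 and its neighbour TraesCS4D02G337900 were low in M6 in both tissues. TraesCS4D02G337800 stood at 0.356 and 0.92 TPM in M6 buds, 0.324 and 1.15 TPM in M6 apices, 3.27 and 2.8 TPM in WT buds and 5.94 and 4.57 TPM in WT apices. TraesCS4D02G337900 stood at 0.0417 and 0.905 TPM in M6 buds, 0.555 and 0.943 TPM in M6 apices, 2.81 and 2.45 TPM in WT buds and 7.04 and 3.5 TPM in WT apices. In both, all M6 libraries lay below all WT libraries. Such a pattern, with M6 below WT in bud and in apex, was found for 10 of the 200 genes (5.0%), against 5.52% of all genes tested.

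By position, shares of the 200 genes on each subgenome lay near those of the pool they could come from, the wheat genes outside 1B and 5B with at least 1 TPM in both WT bud libraries. The A, B and D subgenomes held 72, 51 and 70 genes (36.0%, 25.5% and 35.0%), against 36.7%, 25% and 37.3% of that pool. Single chromosomes held between 8 and 15, with the most on 2D, and 7 genes carried identifiers not assigned to a chromosome (3.50%, against 1.09% of the pool). Wheat identifiers run in steps of 100 along a chromosome, so members whose numbers differ by at most 500 were taken as neighbours. Of the 200 genes, 49 (24.5%) lay in 19 runs of neighbours. These include the pairs TraesCSU02G024600 with TraesCSU02G024800 and TraesCSU02G056700 with TraesCSU02G056900. Their identifiers are not assigned to a chromosome, so their number order may be no position along one. In 200 AK58 apex genes chosen by the mirrored rule, 25 (12.5%) lay in 11 runs, and the longest held 4. Of the 71 genes that met the AK58 criteria but had under 1 TPM in both WT buds, 19 (26.8%) lay in 9 runs, and the longest held 3.

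The longest run held 7 members of 10 identifiers, from TraesCS6A02G093700 to TraesCS6A02G094600. In addition to the 4 genes of this run already given, TraesCS6A02G093700 stood at 16.3 and 28.8 TPM in M6 buds, 25.6 and 13.4 TPM in M6 apices, 54.4 and 61.3 TPM in WT buds and 20.7 and 12.5 TPM in WT apices. TraesCS6A02G094200 stood at 24.7 and 45 TPM in M6 buds, 26.5 and 10.3 TPM in M6 apices, 97.1 and 115 TPM in WT buds and 13.4 and 9.29 TPM in WT apices. TraesCS6A02G094600 stood at 5.51 and 19.3 TPM in M6 buds, 5.23 and 1.52 TPM in M6 apices, 61.4 and 79.1 TPM in WT buds and 2.4 and 1.79 TPM in WT apices. In all 7 members both WT buds were above both WT apices and both M6 buds below both WT buds. In M6 the buds were above the apices for 4 of the 7 and overlapped for TraesCS6A02G093700, TraesCS6A02G094200 and TraesCS6A02G094500. The 3 other identifiers of the run did not meet the rule: TraesCS6A02G093800 had 0 reads in at least 1 AK58 bud library, and TraesCS6A02G093900 and TraesCS6A02G094000 had ratios of 1.59 and 1.04.

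A second run held 5 members of 12 identifiers on 2A. TraesCS2A02G062000 stood at 5.82 and 7.71 TPM in M6 buds, 2.11 and 0.891 TPM in M6 apices, 14.4 and 21.1 TPM in WT buds and 1.26 and 4.02 TPM in WT apices. TraesCS2A02G062400 stood at 4.25 and 18.2 TPM in M6 buds, 16.6 and 3.96 TPM in M6 apices, 26.1 and 43.5 TPM in WT buds and 2.89 and 5.09 TPM in WT apices. TraesCS2A02G062600 stood at 2.5 and 7.47 TPM in M6 buds, 1.44 and 0.0855 TPM in M6 apices, 13.4 and 22.5 TPM in WT buds and 0.521 and 1.31 TPM in WT apices. M6 buds lay above M6 apices for TraesCS2A02G062000 and TraesCS2A02G062600 and overlapped them for TraesCS2A02G062400. TraesCS2A02G062800 stood at 7.67 and 18.3 TPM in M6 buds, 3.04 and 0.418 TPM in M6 apices, 27.5 and 31.9 TPM in WT buds and 0.783 and 2.7 TPM in WT apices. TraesCS2A02G063100 stood at 11.3 and 34.1 TPM in M6 buds, 11.8 and 1.68 TPM in M6 apices, 43.9 and 58 TPM in WT buds and 1.08 and 5.47 TPM in WT apices. In each of the 5 members M6 apex replicate 1 exceeded replicate 2 and M6 bud replicate 2 exceeded replicate 1.

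**Figure D5:**
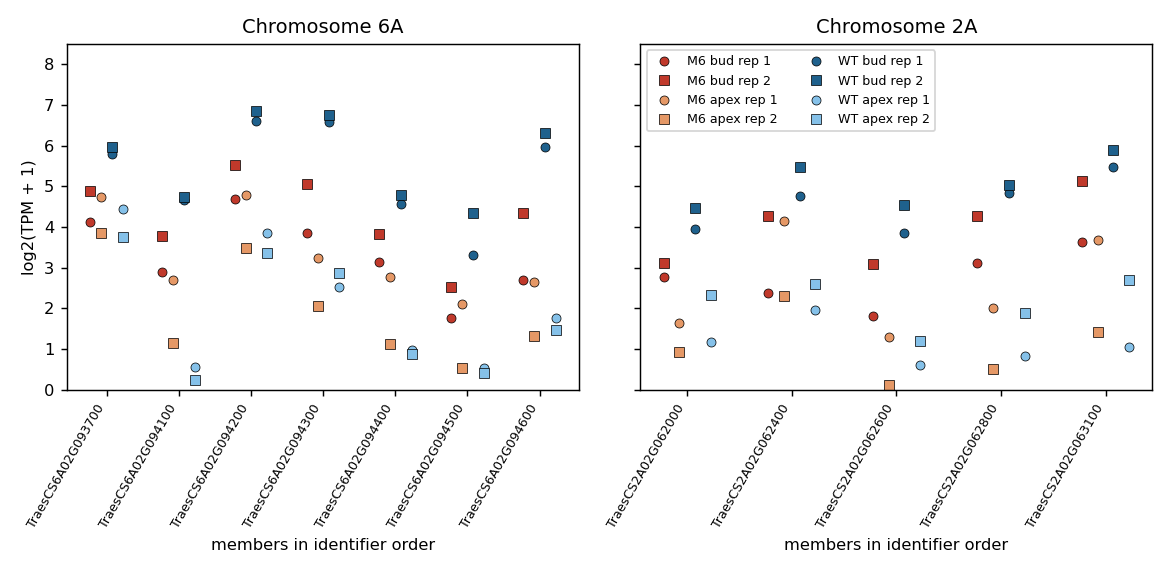
Level of each member of the runs on 6A (left) and 2A (right) in identifier order, as log2(TPM + 1), with circles for replicate 1 and squares for replicate 2 of M6 bud, M6 apex, WT bud and WT apex. WT buds are the highest points for every member, for example 95.3 and 107 TPM for TraesCS6A02G094300, and M6 buds lie below them for every member shown.

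Runs of 3 members lay on 2D, 6B and 7B. On 2D, TraesCS2D02G061100 stood at 2.13 and 3.32 TPM in M6 buds, 0.395 and 0.402 TPM in M6 apices, 5.53 and 3.95 TPM in WT buds and 0.51 and 0.151 TPM in WT apices. TraesCS2D02G061200 stood at 1.39 and 1.78 TPM in M6 buds, 1.04 and 0.114 TPM in M6 apices, 3.11 and 2.49 TPM in WT buds and 0.864 and 3.02 TPM in WT apices. TraesCS2D02G061400 stood at 3.27 and 8.34 TPM in M6 buds, 5.29 and 0.492 TPM in M6 apices, 12.8 and 16.4 TPM in WT buds and 0.755 and 2.07 TPM in WT apices. M6 buds were above M6 apices for TraesCS2D02G061100 and TraesCS2D02G061200 and overlapped them for TraesCS2D02G061400, and WT bud and apex libraries overlapped for TraesCS2D02G061200. The 6B run holds TraesCS6B02G122500, TraesCS6B02G122600 and TraesCS6B02G122800, given above. The other identifier within it, TraesCS6B02G122700, had 171 normalised reads in the lower AK58 bud library and 0 in the other AK58 libraries, and stayed out because a WT bud library had 0.251 TPM.

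On 7B, TraesCS7B02G113000 stood at 11.5 and 17 TPM in M6 buds, 26.2 and 11.2 TPM in M6 apices, 21.3 and 26.9 TPM in WT buds and 4.25 and 4.62 TPM in WT apices. TraesCS7B02G113200 stood at 3.05 and 3.39 TPM in M6 buds, 5.04 and 2.76 TPM in M6 apices, 3.93 and 6.86 TPM in WT buds and 3.8 and 0.827 TPM in WT apices. TraesCS7B02G113300 stood at 5.68 and 8.61 TPM in M6 buds, 5.12 and 4.29 TPM in M6 apices, 6.5 and 8.78 TPM in WT buds and 2.11 and 2.53 TPM in WT apices. All 3 had both WT buds above both WT apices, and M6 buds were above M6 apices for TraesCS7B02G113300 alone. The tables do not pair copies of a gene, and reads shared between near-identical neighbours could be split among them, so the members of a run may not be separate measurements.

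Genes chosen the same way for the apex are set beside the bud genes. The mirrored rule (AK58 apex values of 100 or more, at least 4 times every other AK58 value, and at least 1 TPM in both WT apex libraries) found 468 genes, of which the 200 with the highest ratio were used. Both M6 bud libraries were above both M6 apex libraries for 32 of them (16.0%) and below for 59 (29.5%), against 19.8% and 20.6% of all genes tested. The bud genes had 55 and 33. The median log2 change was -0.14, beside 0.06 for the bud genes. That median of the bud genes turned to -0.17 without M6 apex replicate 2 and to -0.10 without M6 bud replicate 2. In M6 against WT apex, 15 of the apex genes were above (7.5%) and 75 below (37.5%), against 17.4% and 29.2% of all genes tested. Their median was -0.19, and the bud genes had 102, 14 and 0.57. WT apex took part in the choice of the apex genes, which favours a lower value in M6. The 71 genes that met the AK58 criteria but had under 1 TPM in both WT buds are set beside these: 12 of them passed the expression filter. Of these 12, 5 had both M6 buds below both M6 apices (41.7%, against 20.6% of all genes tested). In 1 they were above (8.33%, against 19.8%). The differences between these sets and the bud genes were not tested.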

How the data were processed

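Per the labels' protocols, libraries were made with an Illumina TruSeq stranded mRNA kit. The submitters' processing notes name Trimmomatic, HISAT2 2.0.5 and StringTie 1.3.3b, with the genome build not given in the sources used here. The authors deposited 1 table per library. ZM7698 values are TPM per gene, deposited by the authors with no read counts. The AK58 values deposited by the authors are named TPM, but in every library they were whole read counts divided by 1 factor (within a tolerance of 0.001 reads), so they are a read signal (normalised reads), not scaled to gene length. The share of values that came out whole was 100%.

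ZM7698 was analysed with limma 3.58.1 (R 4.3.3) on log2(TPM + 1) over all 8 libraries with a mean-variance trend. The fit took the 50878 genes that reached 1 TPM in 2 or more libraries. A gene was called at a Benjamini-Hochberg adjusted p under 0.05 and an absolute log2 change of at least 1, two-sided. Fold changes on this scale understate the change of low genes. AK58 bud and apex were also compared with limma, and with edgeR 4.0.16 on the recovered reads, an alternative chosen after seeing the data. Genes needed 10 normalised reads there, and the fits were tested on simulated data. There edgeR's share of false calls was above its nominal rate in the run kept and below it with another random seed. "Above" and "below" mean that both libraries of a group lay beyond both of the other. The genes, the gene sets and the tests were chosen with earlier results of these data known. Genes were named by these rules: the 12 highest AK58 ratios, the calls in M6, the 3 highest means in WT buds, the genes nearest the thresholds and the largest runs of neighbours. Exceptions are marked in the text. Chromosomes were read from the identifiers. Tables were compared only within a cultivar.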

Additional observations from a re-analysis of the deposited data

How the results depend on the processing

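Of 403 alternative values for 28 results, 312 kept their direction and their side of the threshold or stayed close, 61 moved and 30 passed the threshold no longer. No called value changed sign, but the uncalled median of M6 bud over apex turned below 0 without M6 apex replicate 2 or M6 bud replicate 2. With a pseudocount of 5, limma called 0 genes higher in M6 bud over apex, 29 higher and 0 lower in WT bud over apex, 0 higher in M6 over WT apex and 2 lower in M6 over WT bud, and the medians were 0.58 for WT bud over apex and -0.67 for the difference between genotypes. With a pseudocount of 0.1 the WT median was 1.3. Without a filter the counts were 0 higher in M6 bud over apex, 24 higher and 0 lower in WT, and 1 higher in M6 over WT apex, and with a filter at 5 TPM 0 were higher in M6 bud over apex and 1 in M6 over WT apex. With the contrasted groups alone the counts were 0 higher in M6 bud over apex, 71 higher and 0 lower in WT, and 0 higher in M6 over WT apex. Median centring gave 1 lower in M6 bud over apex and 1 in M6 over WT bud, quantile normalization 1 lower in M6 over WT bud, and no trend 0 lower in WT. A ratio of 8 or more gave 0 lower in WT and 3.60% of genes with both libraries higher in M6 over WT bud. A floor of 5 TPM in WT buds gave 0 lower in WT, with both libraries lower for 1.52% in WT bud over apex and 4.57% in M6 over WT apex. For these settings the share of all genes called is not given, so the counts cannot be read as a change in the 200 alone. The cause was not tested. Without the limit of 200 genes, an alternative chosen after seeing the data, the medians over 303 genes were 0.01 in M6 bud over apex and 0.50 in M6 over WT apex.

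With 1 library left out, the counts called higher and lower ranged from 0 to 11 and 0 to 7 in M6 bud over apex, 0 to 76 and 0 to 1 in WT bud over apex, 0 to 4 and 0 to 0 in M6 over WT apex, 0 to 2 and 0 to 25 in M6 over WT bud, and 0 to 1 and 0 to 33 for the difference between genotypes. The medians ranged from -0.17 to 0.23, 0.92 to 1.25, 0.24 to 0.81, -0.72 to -0.29 and -1.32 to -0.86 in the same order. A group then rests on 1 library, assumed to vary like the others. With the replicate block limma called 0 higher in M6 bud over apex, 3 higher and 0 lower in WT and 0 higher in M6 over WT apex. The share of all genes called is not given for the block either. Deviations of same-numbered samples correlated at 0.164 between M6 apex and M6 bud and at -0.308 to -0.0874 between the other groups, and the labels tie the numbers to no shared source, so they were not taken as pairs. The difference between genotypes needs all groups and has no value with contrasted groups alone.

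With 2 libraries per group and no depth for ZM7698, no counting error can be given, and genes under 1 TPM are least certain.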

Other observations

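TraesCS3B02G395900 was the 1 gene of the 200 that limma called lower in WT bud than WT apex, and is named after its values were seen. It had 6.94 and 5.88 TPM in M6 buds, 9.45 and 8.34 TPM in M6 apices, 3.52 and 4.85 TPM in WT buds and 8.16 and 12.8 TPM in WT apices. Both buds lay below both apices in M6 and in WT. The call was lost in 6 of the 8 fits without 1 library. It was also lost with no filter, no trend, the contrasted groups alone, a pseudocount of 5 and the replicate block.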
